A study of Saccharomyces cerevisiae with 9 samples.

Results

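The 7 yeast genes GAA1 (YLR088W), SFT2 (YBL102W), LEA1 (YPL213W), CCT4 (YDL143W), LHP1 (YDL051W), MCM5 (YLR274W) and RPT5 (YOR117W) had 5′ leaders with some of the lowest predicted unpaired probabilities in a pool of synthetic leader RNAs. They were taken from 1623 genes with a symbol and a longest wild-type leader of at least 30 nt, out of 2370 genes with a complete wild-type RNA in the analysed pool. They were chosen by the mean predicted unpaired probability of the longest leader at 30 °C, a value that runs between 0 for bases that are always paired and 1 for bases that are always open. It is therefore described here without a test. The genes hold places 1, 2 and 5 to 9 from the lowest value. Places 3 and 4 belong to the autophagy genes ATG5 (0.248) and ATG29 (0.257), which were not among those chosen. The last gene inside the choice was RPT5 at 0.275, and the next outside it was TAG1 at 0.277.

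The study probed RNA structure with dimethyl sulphate (DMS), which methylates unpaired A and C, in a synthetic pool of Saccharomyces cerevisiae leaders made with T7 RNA polymerase. It holds 9 libraries, 3 in each group: refolded RNA with DMS added for 2 min at 30 °C, denatured RNA with DMS added, and refolded RNA kept for 2 min at 30 °C without DMS. RNA of every group had been heated to 95 °C for 2 min, and all of it was free of cells and proteins. The 6 columns of coverage and mutation values name a replicate but no condition, so none could be tied to a group, and DMS reactivity was not analysed here. All values below are predictions from the RNA sequences, without library depth, replicates or p-values, and they describe pool RNAs in solution rather than mRNAs in yeast.

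In yeast the small ribosomal subunit joins the mRNA near its 5′ cap and scans along the leader to the start codon. Stable pairing in a leader, above all near the cap, is known to slow this step, and helicases such as eIF4A and Ded1 open such structures. Most yeast leaders are short, A-rich and weakly structured. The chosen genes serve unrelated machines. GAA1 encodes a subunit of the transamidase that attaches GPI anchors to proteins, SFT2 a Golgi membrane protein of vesicle transport, and LEA1 a protein of the U2 snRNP of the spliceosome. CCT4 encodes a subunit of the cytosolic chaperonin that folds actin and tubulin. LHP1 encodes the yeast La protein, which binds the ends of RNA polymerase III transcripts. MCM5 encodes a subunit of the replicative DNA helicase, and RPT5 an ATPase of the proteasome's regulatory particle.

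A leader of the pool can pair with any part of its 182-nt RNA. Each RNA holds GGG, then the leader, the start codon and as much coding sequence as fits into a 159-nt insert, then a constant stretch of 20 nt. The last 11 nt of the insert differ between RNAs of the same gene and are called the tag here. Among 2013 pairs of wild-type RNAs of a gene, the coding parts parted within these 11 nt in 1955 pairs and 1 nt further upstream in the other 58. GGG, tag and constant stretch are added bases that the yeast mRNA does not have at these places. Every other ATG of a wild-type insert is written as agt in the file, so the RNA carries AGU there.

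Predicted helices are printed to show which leader bases paired within the leader and which with the coding part. Helices with the tag or the constant stretch are not printed, though added bases took 52.9% of the leader pairing in GAA1. The letters are those of the file, where T stands for U in the RNA. Capitals mark bases paired in the minimum free energy structure within the helix shown, and lower case marks bases not paired in it. Positions count from the A of the start codon as 1, and the base before it is -1.
SFT2, leader hairpin, -91 to -64: GGTAGTTTaGAGTaggACTTAGATTACC
SFT2, tip of the second leader hairpin, -44 to -15: TTTTTTTTTTTTGctggTAAAAAAAAAGAA
LHP1, leader hairpin, -41 to -21: TTTGGTTCTactGGAACTAAA
RPT5, tip of the leader hairpin, -69 to -40: TTATAcgaGTGACttatttGTgCATTATAG
RPT5, leader arm, -24 to -4: GGAAAGTTTtGATTTTAGTTT
RPT5, coding arm, 16 to 38: GAATTGGAGTCtcAAACTTTaCC
GAA1, leader arm, -15 to -1: TATAATAcaCCAAGA
GAA1, coding arm, 96 to 117: TCTattTGGgttTATttcTATA
LEA1, leader arm, -35 to -12: CAGGaCTTggAAAATAtCAGTTTT
LEA1, coding arm, 79 to 102: AAAGTTGtTATTTTaaGAGaCCTG
CCT4, leader arm, -32 to -13: TGtgcAAGACGGGTaaaGGA
CCT4, coding arm, 100 to 114: TCCATCCGTaCTTCA
MCM5, leader arm, -32 to -7: GAGtaTCTCCTTGgTGAAtTAGaAGC
MCM5, coding arm, 31 to 55: GCTcCTGtTTTACAAGGAGAatCTC

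SFT2, LHP1 and RPT5 had leaders that mostly paired with themselves. Of all the pairing of their leader bases, 86.6% in SFT2, 62.1% in LHP1 and 62.1% in RPT5 lay within the leader. GAA1, LEA1, CCT4 and MCM5 had almost none of it there, with 0.445%, 0.219%, 0.0767% and 0.0769%. The median over the 1623 genes was 54.2%. A share under 1% was found in these 4 of the 7 genes, against 3.45% of the 1623. That count depended on the folding settings. With the Andronescu energy parameters none of the 7 was under 1%, with 9.91% in GAA1, 5.71% in LEA1, 11.98% in CCT4 and 2.36% in MCM5, against 1.05% of genes under 1%. With AGU written back as AUG, 2 of the 7 were under 1% (CCT4 and MCM5), against 2.83% of genes, and LEA1 had 49.3%. Under both settings SFT2, LHP1 and RPT5 stayed at 43.0% or above. These shares come from the same folding that chose the genes, so they carry no test.

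SFT2 had the leader with the second lowest value, 0.223 over 105 nt. Its 5′ hairpin closed 12 pairs with a mean pair probability of 0.853. A second hairpin, which ends at the start codon, closed 25 pairs at 0.886, of which 18 were A-U pairs and 3 were G-C pairs. A run of 12 U faced a run of 9 A at its tip. A run of at least 6 U occurred in 6.78% of the 1623 genes and a run of at least 8 A in 4.31%, and SFT2 was the single gene of the 7 with either. Of its 105 leader bases, 87 had an unpaired probability below 0.5 and 66 below 0.1. A further 12.6% of its leader pairing went to coding bases. Leader bases -62 and -61 faced the first 2 bases of the start codon. Bases -96 to -92 faced coding bases 3 to 7, the last base of the start codon included, and bases -105 to -102 faced coding bases 9 to 12.

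LHP1 had a compact 9-pair hairpin at its very 5′ end, with a loop of 3 nt and a mean pair probability of 0.951. Its leader of 41 nt had a mean unpaired probability of 0.266, and its first 10 nt had 0.122, the lowest 5′ end of the 7 genes. Downstream of the hairpin the pairing was of another kind. Leader bases -17 to -12 faced the constant stretch, which took 21.2% of all leader pairing, and the 8 pairs of the leader bases -11 to -2 with the coding part had a mean probability of only 0.302. The 10 nt next to the start codon were more open, at 0.485.

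RPT5 combined both kinds over a leader of 92 nt. Its first 4 leader bases faced the constant stretch with a mean probability of 0.997, and that stretch took 6.06% of the leader's pairing. The leader hairpin between -85 and -25 closed 22 pairs with a mean probability of 0.825. The leader bases next to the start codon formed 20 pairs with coding bases 16 to 38 at a mean probability of 0.969, and this helix bridged the start codon with 18 nt between its arms. In the leader, the 10 nt from -30 to -21 were the most closed, with 0.0230, and those from -60 to -51, which hold the loop of the hairpin, the most open, with 0.571. The coding arm included all 3 bases of an AGU that replaces an AUG, and 4.49% of the leader's pairing rested on such replaced codons.

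GAA1 had the lowest value of all 1623 genes, 0.159 over 31 nt, and 28 of the 31 bases lay below 0.5. Its leader stood against the far end of the pool RNA in 3 consecutive blocks. Bases -31 to -24 faced the constant stretch in 8 pairs, bases -22 to -16 faced the tag in 7 pairs, and bases -15 to -1 faced coding bases 96 to 117 in 13 pairs. The mean pair probabilities were 0.782, 0.951 and 0.752. Added bases took 52.9% of the leader's pairing, against a median of 13.3% over the 1623 genes. The mean distance between paired bases was 134 nt. Replaced codons carried 7.65% of the pairing, the highest such share of the 7 genes. In the minimum free energy structure, 2 pairs of the tag block fell on such codons, and none of the coding block did. Writing AGU back as AUG thus also changed tag bases, which the yeast mRNA does not have there. With AGU written back as AUG the leader had 0.468, at place 727 and outside the lowest 10% of genes, and with the Andronescu parameters it had 0.352, at place 65.

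LEA1 and CCT4 also paired over long distances, with means of 109 nt and 117 nt. In LEA1 (0.264 over 46 nt), leader bases -35 to -12 formed 20 pairs with coding bases 79 to 102 at a mean probability of 0.887, and bases -43 to -36 formed 8 pairs with the tag at 0.897. Coding bases took 73.4% and the tag 24.0% of its leader pairing. The coding arm held all 3 bases of a replaced codon, and such codons carried 7.55% of the pairing. CCT4 (0.266 over 34 nt) paired its leader with coding bases for 87.6%, the highest such share of the 7 genes. It used coding bases 100 to 114 for a helix of 14 pairs, 7 of them G-C, at 0.768, and coding bases 85 to 95 for a helix of 10 pairs at 0.793. With the Andronescu parameters CCT4 had 0.429, at place 408.

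MCM5 (0.274 over 38 nt) folded its leader onto nearer coding bases. Leader bases -32 to -7 formed 21 pairs with coding bases 31 to 55, of which 9 were G-C, at a mean probability of 0.775. The start codon lay in the 36 nt between these arms. Its first 4 leader bases faced the constant stretch, with a mean probability of 0.980, and that stretch took 23.9% of the leader's pairing. Without energies for dangling ends MCM5 had 0.389, at place 218. Over 20% of leader pairing with added bases was predicted for 4 of the 7 genes (GAA1, LEA1, LHP1 and MCM5), against 36.7% of all 1623.

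**Figure D1:**
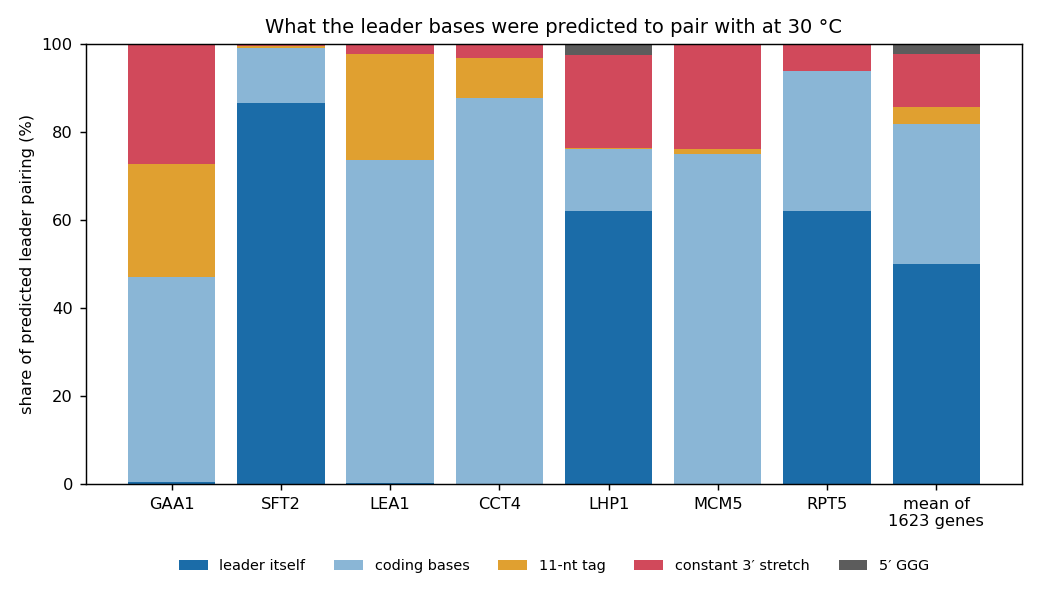
Stacked bars give, for each of the 7 genes and for the mean of 1623 genes, the share (%) of predicted leader pairing at 30 °C that falls on the leader itself, coding bases, the 11-nt tag, the constant 3′ stretch and the 5′ GGG. SFT2, LHP1 and RPT5 have 62.1% or more within the leader, whereas GAA1, LEA1, CCT4 and MCM5 have under 1% in this setting, the default energy parameters with AGU kept.

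When the leader was folded with GGG alone, the self-pairing leaders stayed closed and the others did not. This outcome largely follows from the partner shares above, since a leader folded alone can pair only with itself and GGG. Folded alone, LHP1 had 0.325 against 0.266 in the whole RNA, SFT2 had 0.302 against 0.223 and RPT5 had 0.416 against 0.275. These 3 genes were in the lowest 10% of the 1623 genes in this setting (9.98% by construction, 162 genes), at places 6, 4 and 84. GAA1 had 0.806 alone against 0.159 in the whole RNA, which put it at place 1540, where a high place means an open leader. CCT4 had 0.638 alone against 0.266 in the whole RNA, at place 1162. LEA1 and MCM5 both had 0.551 alone, against 0.264 and 0.274 in the whole RNA. The median over the 1623 genes was 0.562 alone and 0.477 in the whole RNA.

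A leader folded with its coding bases and without any added base is the closest of these settings to the mRNA, though it keeps the AGU codons. There, 5 of the 7 genes were in the lowest 10% (9.98% of genes by construction): SFT2 at 0.256, CCT4 at 0.332, MCM5 at 0.336, LHP1 at 0.354 and RPT5 at 0.363. SFT2 held place 1. LEA1 had 0.423 without the added bases, against 0.264 in the whole RNA, and place 258. GAA1 had 0.529 without them, against 0.159 in the whole RNA, and place 965, above the median of 0.507 over all genes. Of the 162 genes in the lowest 10% in the whole RNA, 90 (55.6%) were also in it without the added bases and 64 (39.5%) with the leader alone. Even so, the coding part is cut at the insert's end, so pairing with later coding bases or the rest of the mRNA was not part of any setting.

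**Figure D2:**
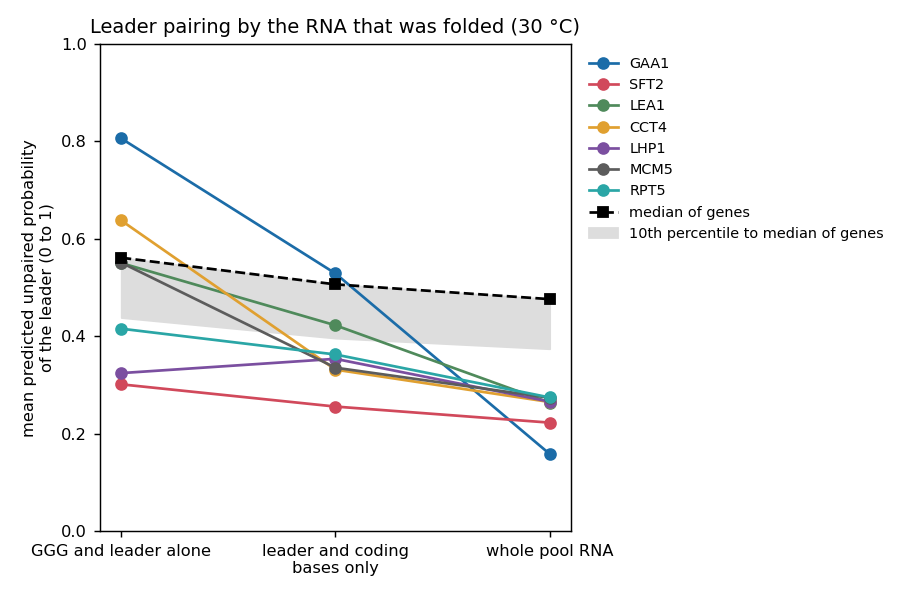
Lines join the mean predicted unpaired probability of the leader (0 to 1) of each of the 7 genes when folded with GGG alone, with coding bases only, and as the whole pool RNA, all at 30 °C. The dashed line is the median of 1623 genes and the grey band reaches down to their 10th percentile. GAA1 runs between 0.806 alone and 0.159 in the whole RNA, while SFT2 stays at 0.302 or below.

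Around the start codon the 7 genes differed widely among themselves. The mean unpaired probability from 10 nt before to 10 nt after the codon was 0.107 in SFT2 and 0.264 in GAA1, both in the lowest 10% of genes (9.98%). CCT4 had 0.329, RPT5 0.452, MCM5 0.509, LEA1 0.537 and LHP1 0.546. The last 3 lay above the median of 0.472 over the 1623 genes. SFT2 was in the lowest 10% in every folding alternative that has this window, with up to 0.321 when pairs were at most 50 nt apart. GAA1 was not in it with AGU written back as AUG (0.4997), with the 50-nt limit (0.555), with the Andronescu parameters (0.405) or without the added bases (0.473). A closed leader thus did not always come with a closed start codon in these predictions, although the window shares 10 nt with the leader that was used for the choice.

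At the 5′ end, where ribosomal subunits join an mRNA, the first 10 nt of the leader had 0.122 in LHP1, 0.206 in LEA1, 0.206 in MCM5 and 0.210 in GAA1. CCT4 had 0.320, RPT5 0.358 and SFT2 0.400. All 7 values lay below the median of 0.438 over the 1623 genes. These 10 nt belong to the leader that was averaged for the choice, which makes low values likely beforehand. Only LHP1 was in the lowest 10% (9.98%), at place 55. Without the added bases, which the mRNA lacks, all 7 of these 5′ ends were more open than with them. The median over the genes rose as well, from 0.438 to 0.563. LHP1 had 0.167, at place 34, and MCM5 had 0.429 and GAA1 0.508. CCT4 had 0.598, SFT2 0.735, RPT5 0.771 and LEA1 0.836, all above the median of 0.563 over the genes in that setting. With GGG and constant stretch removed but the tag kept, SFT2 had 0.119, at place 12. It alone of the 7 genes had a more closed 5′ end there than in the whole RNA. The first 30 nt from the start codon on were not averaged in the choice, but some pair with leader bases that were. In the whole RNA these 30 nt had between 0.307 in SFT2 and 0.620 in LHP1, against a median of 0.440 over the genes. Of the 7, 4 lay above that median (LEA1, CCT4, LHP1 and MCM5), and SFT2 alone was in the lowest 10% (9.98%).

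**Figure D3:**
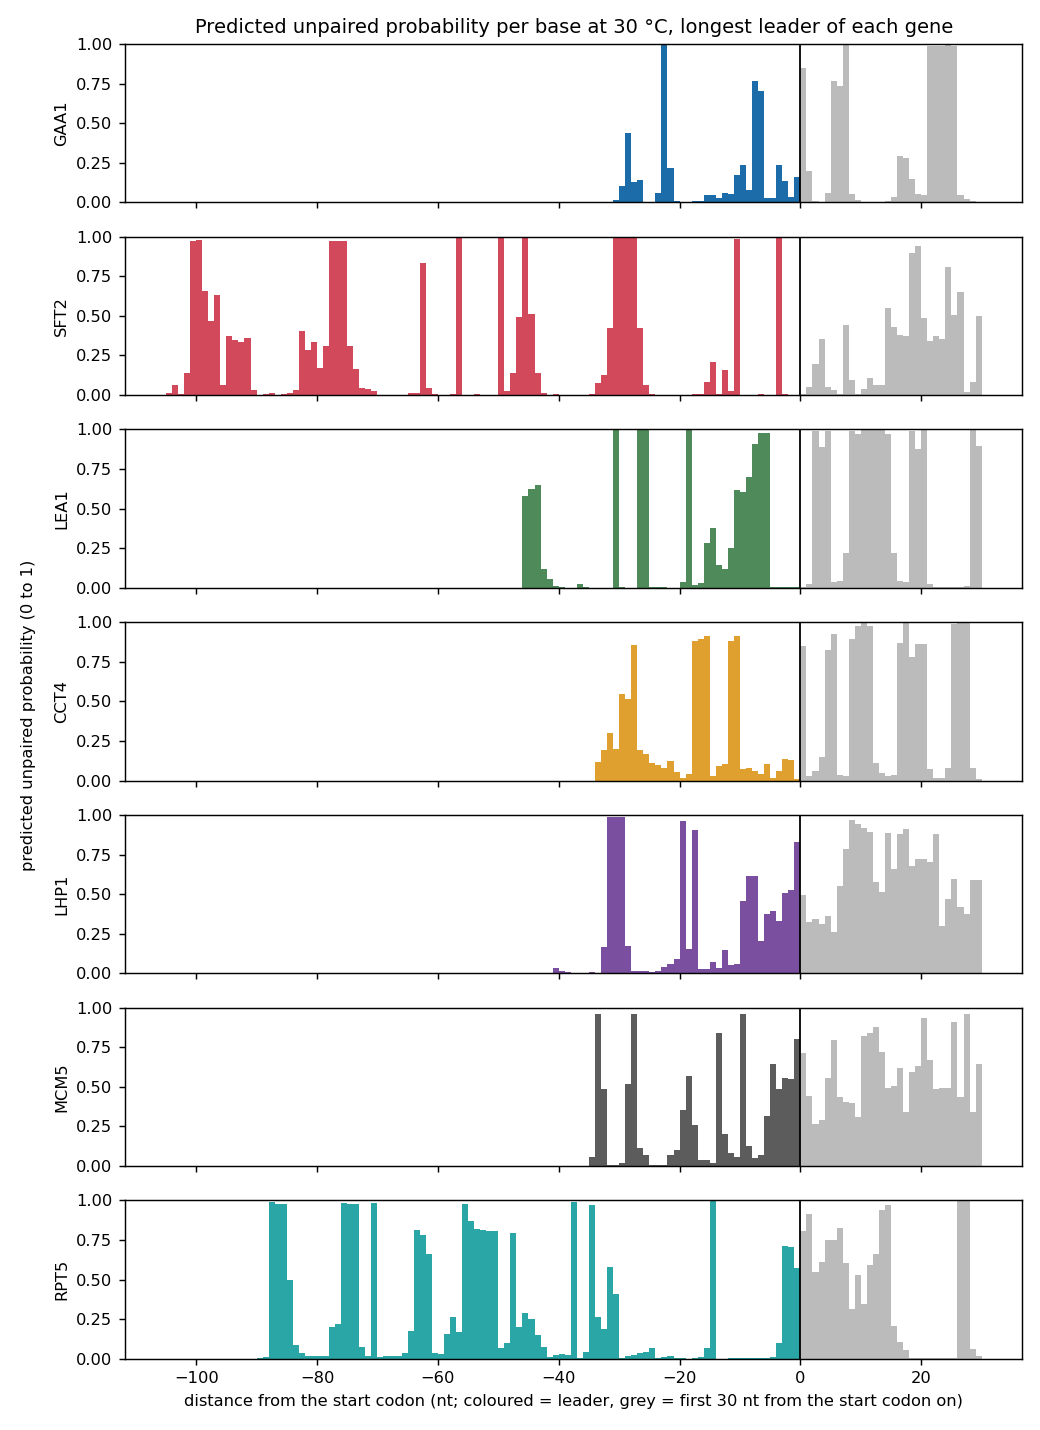
Bars give the predicted unpaired probability (0 to 1) of each base at 30 °C against its distance from the start codon (nt), with the leader in colour and the first 30 nt from the start codon on in grey, 1 panel per gene. The 10 nt before the start codon average 0.102 in SFT2 and 0.0719 in CCT4, against 0.485 in LHP1 and 0.456 in MCM5.

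GC, A and U content did not set the 7 leaders apart in a single direction, whereas most of them were high in G and low in C. Their GC content ran from 28.3% in LEA1 to 47.1% in CCT4, with 4 genes above the median of 35.0% over the 1623 genes. The A content ran from 26.7% in SFT2 to 48.4% in GAA1, and U from 9.68% in GAA1 to 39.0% in SFT2. G content was above the median of 17.1% in 6 of the 7, with 38.2% in CCT4. C content was below its median of 17.1% in 5 of the 7, and above it in GAA1 and MCM5. It was 8.70% in RPT5, 8.82% in CCT4, 10.5% in SFT2 and 10.9% in LEA1, under the genes' 10th percentile of 10.99%. GAA1 was the exception in G, at 16.1%, and had the most C, 25.8%. A G-rich leader can pair with C and with U, but whether this bears on the values of the 7 leaders was not tested. A linear fit of the leader value on A content, U content and length over the 1623 genes explained 28.4% of the variance and left residuals with an SD of 0.0833. The residuals of the 7 genes ran from -0.168 in RPT5 to -0.395 in GAA1, whose fitted value was 0.554. Choosing low values makes such residuals likely beforehand.

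No leader of the 7 genes held an AGU in place of an upstream AUG, which 16.6% of the 1623 leaders did. Nor did the pool table analysed here hold a variant of them with an upstream AUG or an inserted stem-loop. The base 3 nt upstream of the start codon was A in 6 of the 7, against 62.7% of genes, and LHP1 had G there. The leaders were between 31 and 105 nt long with a median of 41 nt, against 61 nt over the 1623 genes, and 5 of them had at most 46 nt.

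Shorter leaders of the same genes were present for 6 of the 7 genes, CCT4 being the exception. They were not used for the choice but share their bases with the longest leader, so they are not replicates. The 7 shorter leaders of at least 10 nt carry tags of their own. SFT2 with 87 nt had 0.249, against 0.223 for its 105-nt leader, and paired with itself for 91.5%. LEA1 with 35 nt had 0.290, against 0.264 with 46 nt, and paired with coding bases for 99.6%, with 0.0110% on its tag. Over the 35 bases that both leaders share, the value was 0.290 in the shorter RNA and 0.288 in the longest, so the same bases were predicted equally closed beside a different tag. LEA1 with 19 nt, which lacks most of the leader arm printed above, had 0.511, against 0.371 for the same bases in the longest RNA.

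LHP1 with 22 nt lacks the 5′ arm, the loop and most of the 3′ arm of its hairpin. It had 0.457, against 0.338 for the same bases in its 41-nt leader. MCM5 with 19 nt kept its pairing with the coding part at 98.3% and had 0.428, against 0.351 for the same bases in its 38-nt leader. RPT5 had 0.314 with 58 nt and 0.358 with 79 nt, against 0.249 and 0.274 for the same bases in its 92-nt leader. The shared bases were more open in the shorter RNA in all 7 comparisons, by 0.00113 to 0.141. The longest leaders had been chosen for low values, which makes this direction likely beforehand.

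On heating in the prediction, GAA1 and SFT2 stayed the most closed up to 55 °C. At 37 °C the 7 leaders ran from 0.170 in GAA1 to 0.303 in MCM5, against a median of 0.497 over the 1623 genes. At 45 °C they ran from 0.196 to 0.343 and at 55 °C from 0.271 to 0.404, against gene medians of 0.525 and 0.577. At 65 °C SFT2 had 0.344, the lowest of the 1623 genes, GAA1 had 0.467, and LEA1 and RPT5 both had 0.545, against a median of 0.642. All 7 were in the lowest 10% of genes up to 55 °C and 5 of 7 at 65 °C (9.98% by construction).

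**Figure D4:**
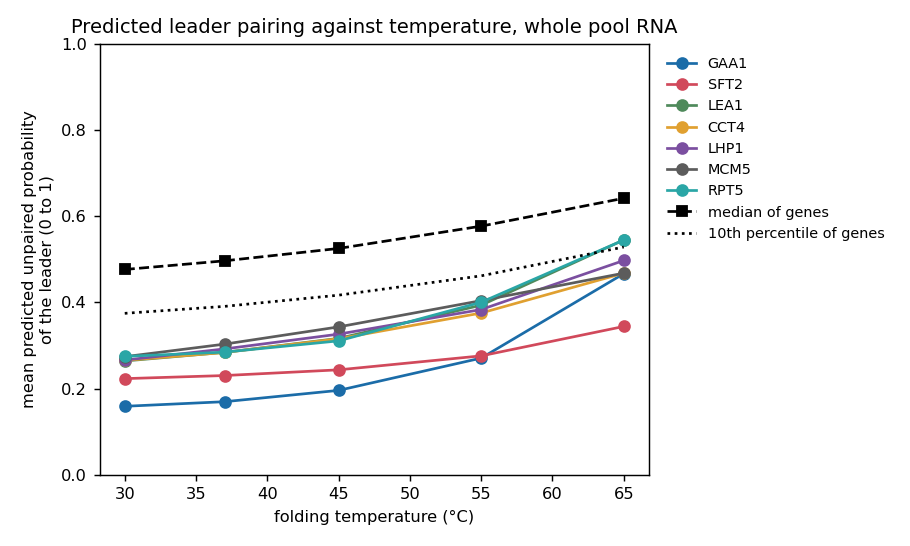
Lines give the mean predicted unpaired probability of the leader (0 to 1) of each of the 7 genes in the whole pool RNA against the folding temperature (°C), with the median and the 10th percentile of 1623 genes. SFT2 runs from 0.223 at 30 °C to 0.344 at 65 °C, and the gene median from 0.477 to 0.642.

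Other genes of the same machines were examined where their leaders were long enough. Of 63 genes listed for 7 complexes or pathways, 34 were among the 1623 genes, and 27 of these were not among the 7. In the whole RNA none of the 27 was in the lowest 10% (9.98% of genes), and 18 lay above the median over all genes. Their values ran from 0.385 in YSF3, a splicing factor gene, to 0.709 in LSM3, with a median of 0.497. The chaperonin subunits TCP1, CCT3, CCT5, CCT6 and CCT7 had between 0.474 and 0.527, against 0.266 in CCT4. The 7 genes were chosen for low values, which makes higher values in the other genes of their machines likely beforehand. The helicase subunits MCM3, MCM4 and MCM7 had 0.472, 0.479 and 0.497, and the proteasomal ATPases RPT2 and RPT3 had 0.521 and 0.538. GPI17, of the GPI transamidase, had 0.469, and SFT1, a Golgi SNARE gene, had 0.508. Among the U2 snRNP genes, MSL1, whose protein is the partner of Lea1, had 0.530. Without the added bases, however, CCT5 had 0.339, at place 31 and in the lowest 10%, as was CCT4 with 0.332 at place 21.

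The genes nearest to the choice showed the same mixture of partners. ATG5 paired within its leader for 54.2% and kept 0.276 without the added bases, at place 3. ATG29 paired with coding bases for 66.9% and had 0.345 without added bases. TAG1 paired with coding bases for 61.2% and had 0.408 without them. HPC2, at place 11 with 0.282, resembled GAA1: it had 0.171% of its pairing within the leader and 52.3% with added bases, and without these it had 0.657, at place 1462. BER1, at place 12 with 0.284, had 0.343 without them. Of the 12 lowest genes, 8 were in the lowest 10% without the added bases and 4 with the leader alone.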

How the data were processed

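The deposited data are a table with 1 row per position of each of 5762 pool RNAs, giving the RNA's name, its base, 3 columns of coverage and 3 named as mutation rates. The authors' base letters and the RNA names were used. The 6 value columns were not, since their names give no condition. Per the submitters' processing notes STAR and SAMtools were used, with no version given. The genome build is not given in the sources used here, so no coordinates are printed. Locus tags were paired with symbols through RefSeq's R64 table.

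Rows of an RNA were joined in file order. The leader runs from the base after GGG to the lower-case atg. The whole 182-nt RNA was folded with ViennaRNA 2.7.2 at 30 °C (default parameters after Turner, dangles 2). A base's unpaired probability is 1 minus the sum of its pair probabilities. Partner shares divide the summed pair probabilities of the leader bases by the region of the partner. Helices are runs of pairs in the minimum free energy structure with gaps of at most 3 nt on each strand, trimmed to arms of at most 30 nt. Leaders under 10 nt were not folded. The computation was tested on constructed RNAs with known helices.

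The genes, lists and measures were chosen with earlier results of these data known. Named were the 7 genes, the 12 lowest genes and the listed partner genes. The planned DMS reactivity result was not computed.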

Additional observations from a re-analysis of the deposited data

How the results depend on the processing

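No paired analysis was possible because no column of values could be tied to a sample, and for the same reason no replicate could be left out. Spread here means the SD over the 7 genes. The median leader value of the 7 genes, 0.266, moved by more than that to 0.346 with the Andronescu parameters, 0.310 without GGG and constant stretch, 0.354 also without the tag (an alternative chosen after seeing the data), 0.551 with the leader alone, 0.470 with pairs at most 50 nt apart, 0.211 in the minimum free energy structure and 0.319 with AGU written back as AUG. The median 5′ end value, 0.210, moved to 0.348 without GGG and constant stretch, 0.598 also without the tag, 0.544 alone, 0.611 with the 50-nt limit and 0.350 with AUG restored. The median share of pairing within the leader, 0.445%, moved to 75.1% with the 50-nt limit and 49.3% with AUG restored. All 7 genes were in the lowest 10% in the main setting, but 3 with the leader alone and 2 with the 50-nt limit. For the start codon window the count of 2 became 1 with the Andronescu parameters, the 50-nt limit or AUG restored. The count of 4 genes with under 1% of pairing within the leader, examined across settings only after seeing the data, became 0 with the Andronescu parameters or the 50-nt limit and 2 with AUG restored or without all added bases. The other 54 of 77 such medians and counts of the 7 genes stayed within the spread or within 1.5 times the count. For the share within the leader the spread is wide, since the genes lie near 0 or far above it, and its median of 11.98% with the Andronescu parameters and of 6.59% without all added bases is therefore counted among the 54. By gene, SFT2 and LHP1 stayed in the lowest 10% in all 9 folding alternatives, RPT5 in 8, LEA1, CCT4 and MCM5 in 6 each and GAA1 in 5. GAA1 had 0.468 with AUG restored, which also changed its tag, and 0.656 with the 50-nt limit. CCT4 had 0.429 with the Andronescu parameters and MCM5 0.389 with dangles 0. The predictions use no reactivity data, salt or protein, and the coding part is cut short.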
